A study of Homo sapiens with 12 samples.

Results

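The effects of 2 inhibitors in libraries labelled as 1 lung cancer line were set against each other, gene by gene, to see where they agreed and where they went opposite ways. All 12 of the 12 RNA libraries of the series were used, 3 in each of 4 groups, and all 12 entered one fit. The line the labels give, NCI-H520, comes from a squamous lung tumour and carried a stable lentiviral insert, either the chimeric *L1-FGGY* transcript (OV-L1-FGGY) or the vector without it (OV-CTRL). The ML355 effect was taken as OV-L1-FGGY cells with 10 μM ML355 against OV-L1-FGGY cells with DMSO. The NVR effect was taken as the libraries labelled NVR, at 450 μM, against the DMSO control read as OV-CTRL. DMSO was at 0.2% in every control culture, and the medium was replaced 5 h after seeding. The 2 effects therefore share no DMSO library. Nothing in the labels says whether the 3 libraries of a group are separate cultures, so that p-values measure the spread between these libraries, which may be technical.

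ML355 inhibits 12-lipoxygenase (12-LOX), the enzyme that oxidises arachidonic acid to 12-HETE. NVR is a reverse transcriptase inhibitor, and LINE-1 (L1) is the retrotransposon whose own reverse transcriptase copies its RNA into DNA. Dividing cells switch on replication genes around S phase through E2F factors and mitotic genes later, in G2/M, through complexes that bind a short promoter element called CHR.

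The level of the overexpressed gene limits what the labels can carry. *FGGY* had 4782, 5206 and 6196 counts in the OV-L1-FGGY libraries with DMSO and 7346, 6290 and 5080 in those with ML355. In the libraries labelled NVR it had 82, 103 and 88 counts, and in OV-CTRL with DMSO 91, 87 and 78. This level goes against the label that puts the NVR libraries with OV-L1-FGGY, and for that reason they are set against the control DMSO group and called by their label only. The difference between the effects compares 2 inhibitors at different doses and also 2 different DMSO groups, and these cannot be told apart. Of 8 squamous lung markers, 4 were at 3 counts or fewer in every library, and the summed level of the 8 ran from 1005 to 1055 CPM in OV-L1-FGGY with DMSO against 17.03 to 22.7 CPM in OV-CTRL with DMSO. *KRT17* made up nearly all of the first sum and was at most 0.138 CPM in the libraries labelled NVR. *SOX2* was at 0 in every OV-L1-FGGY library with DMSO or ML355. It was at 14.7 to 18.1 CPM in OV-CTRL with DMSO and at 5.81 to 13.3 CPM in the libraries labelled NVR. The fibroblast marker *LUM* was at 231 to 248 CPM in OV-L1-FGGY with DMSO and at most 0.0819 CPM in OV-CTRL with DMSO. In the libraries labelled NVR it was at most 0.0459 CPM. These markers differ between the DMSO groups although the labels give 1 line for both. The part of these baseline differences in the disagreement was not tested. Total counts per library ran from 16242082 to 27004768.

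Of 17849 genes tested, ML355 raised 21.3% and lowered 23.5% (edgeR's quasi-likelihood test at a Benjamini-Hochberg adjusted p under 0.01), and the libraries labelled NVR were higher for 14.5% and lower for 15.3%. The difference between the effects passed the same threshold with the NVR effect above the ML355 effect for 16.8% of genes and with it below for 17.3%. Both effects were called for 2672 genes. In 1725 of these (64.6%) the directions agreed, with 841 genes higher with both inhibitors (4.71% of genes tested) and 884 lower with both (4.95%). In the other 947 the directions were opposite, with 436 genes higher in NVR and lower in ML355 (2.44%) and 511 lower in NVR and higher in ML355 (2.86%). The difference between the effects was called for each of these 947 genes. This follows from how they were chosen, since 2 called effects of opposite sign add up in their difference, and is no separate result.

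**Figure D1:**
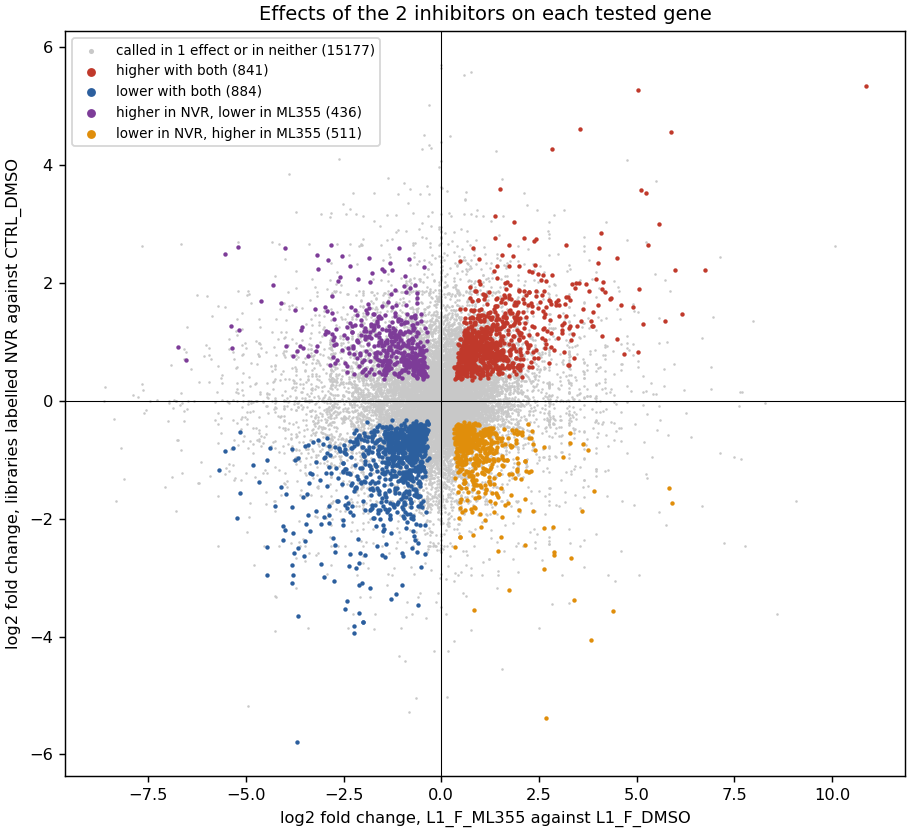
Each point is 1 of 17849 tested genes, with its log2 fold change with ML355 (OV-L1-FGGY with ML355 against OV-L1-FGGY with DMSO) on the horizontal axis and that of the NVR libraries against the control DMSO group on the vertical axis. Coloured points were called in both effects, and the 1725 that agree lie in the upper right and lower left corners, the 947 that disagree in the other two.

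The genes higher with both were 22.1% of those that ML355 raised and 32.4% of those higher in NVR. The genes lower with both were 21.1% and 32.5% of the corresponding lists. Opposite genes took smaller shares, since those higher in NVR and lower in ML355 were 10.4% of the genes ML355 lowered and 16.8% of the genes higher in NVR, and the reverse class was 13.4% and 18.8%. Across all 17849 genes the correlation of the 2 log2 fold changes was weak, with Pearson's r at 0.119 and Spearman's rho at 0.134. It was 0.177 and 0.174 over the 12145 genes that averaged 1 CPM or more in both DMSO groups. Genes are not independent replicates, and these values only describe the 12 libraries.

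Agreement was more frequent among genes with large effects. Where the smaller of the 2 absolute log2 fold changes was under 0.5, 219 of 402 genes called in both (54.5%) moved the same way. The share was 64.5% (1004 of 1556) from 0.5 to 1, 69.5% (431 of 620) from 1 to 2 and 75.5% (71 of 94) above 2. Over genes with at least 1 CPM in both DMSO groups it was 62.8% (852 of 1356) where the 2 DMSO groups lay within 2-fold of each other and 65.4% (721 of 1103) where they lay 2-fold or more apart.

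Genes that moved the same way did not always move by the same amount. Of the 1725, 399 also passed the test of the difference and 1326 did not, which does not show that their effects were equal. The median standard error of a difference was 0.269 on the log2 scale, against 0.190 for the ML355 effect and 0.184 for the NVR effect. Among genes higher with both, ML355 had the larger effect in 550 of 841 and the difference was called in 162, 147 with ML355 larger and 15 with NVR larger. Among genes lower with both, ML355 had the larger fall in 511 of 884, and the difference was called in 237, of which 155 fell further with ML355 and 82 further in NVR. Of the 7976 genes called in only 1 of the effects, the difference was called for 4419, so that for the other 3557 a response to a single inhibitor was not shown. In 328 of the 7201 genes called in neither effect, the difference alone was called.

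The balance of higher and lower genes depended on the scaling. With library size alone in place of TMM the median of all genes lay 0.128 lower for ML355 and 0.156 lower for NVR on the log2 scale. Higher genes then made up 39.3% of those called with ML355 rather than 47.6%, and 36.3% of those called in NVR rather than 48.8%, and 557 genes were higher with both against 1094 lower with both. DESeq2's size factors in edgeR gave 928 and 800.

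Genes of DNA replication agreed more often than they disagreed. Of 43 S phase genes, ML355 lowered 24 and raised 4, and 42 were lower in NVR with none higher. Both effects lowered 23, against 4.95% of all genes tested, among them *MCM2*, *MCM4*, *MCM5* and *MCM6* of the replicative helicase, *PCNA*, the sliding clamp of DNA polymerases, and *CDC6*, which loads the helicase. The median log2 fold change of the list was -0.51 with ML355 and -1.81 in NVR, against 0.00 in both for all genes tested. The fall was larger in NVR, with the difference called for 34 of the 43 members, each with the NVR effect below the ML355 effect. In libraries of whole cultures, fewer cells in S phase and less of these RNAs per cell cannot be told apart.

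G2/M genes were called in opposite directions more often than in the same one. Of 54 tested, ML355 raised 28 and lowered 4, whereas 49 were lower in NVR and none higher. Both effects were called in opposite directions for 25 members, all of them higher with ML355 and lower in NVR, against 2.86% of all genes tested. These 25 include *CDK1*, the kinase that drives entry into mitosis, its partner *CCNB2*, the kinases *AURKA*, *AURKB*, *NEK2* and *TTK*, and *CDC20* and *UBE2C*, which act in the destruction of mitotic proteins. Only *CENPF*, *KIF11*, *ANP32E* and *LBR* were lower with both. The median of the list was 0.45 with ML355 and -1.002 in NVR, and the difference was called for 48 members, each with the NVR effect below. Leaving out 1 library at a time, the number of opposite members ran from 19 to 26 and that of S phase genes lower with both from 17 to 27. The 4 G2/M genes lower with both fell to 2 without OV-L1-FGGY DMSO replicate 1, OV-L1-FGGY DMSO replicate 3 or ML355 replicate 3.

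**Figure D2:**
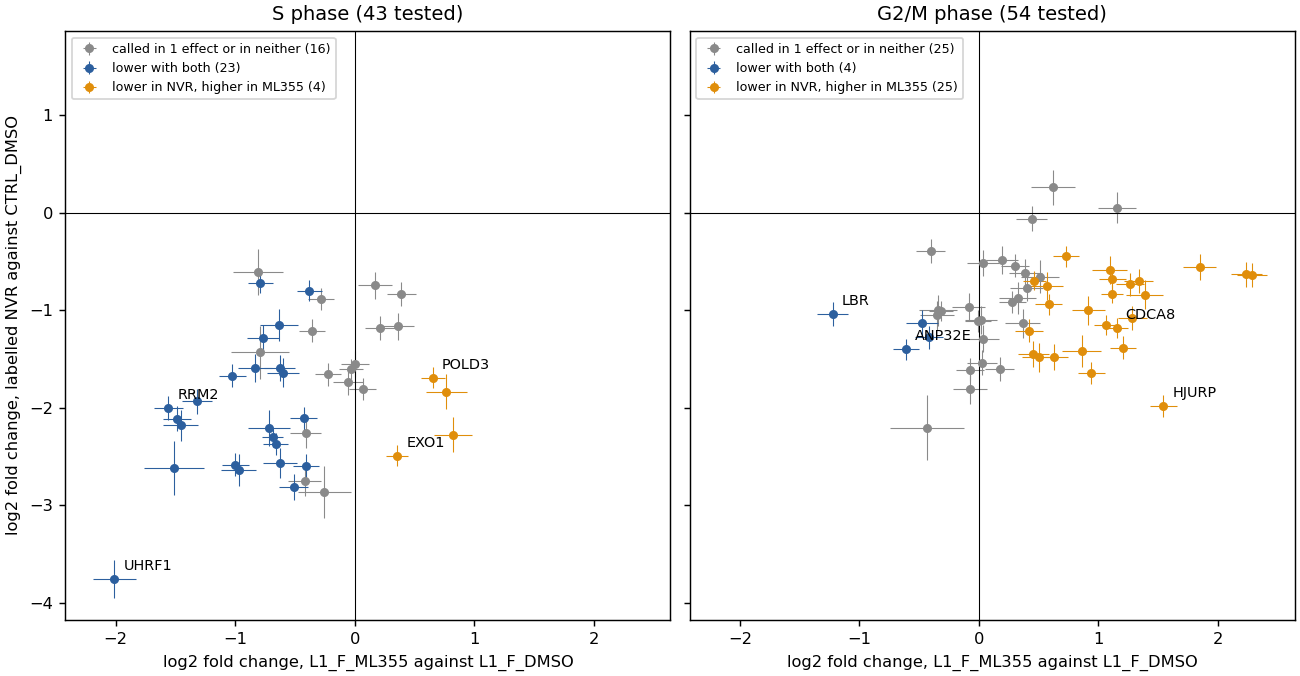
Log2 fold change with ML355 (horizontal) and in the libraries labelled NVR (vertical) of the 43 S phase genes and the 54 G2/M genes tested, each point a gene with bars of 1 standard error from the edgeR fit. S phase genes lie mainly in the lower left, with 23 lower with both, and G2/M genes reach into the lower right, where 25 were lower in NVR and higher with ML355.

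The promoters of 2 genes of each list are printed because the cell cycle lists differ in the elements they carry, and because these 4 genes stand for agreement and disagreement. Each runs from 250 bases before to 50 bases after the RefSeq gene start on GRCh38.p14, 5′ to 3′ on the strand of the gene. *UHRF1* (chr19:4909251-4909550, plus strand) was lower with both, *EXO1* (chr1:241847954-241848253, plus strand), *HJURP* (chr2:233854486-233854785, minus strand) and *CDCA8* (chr1:37692266-37692565, plus strand) were higher with ML355 and lower in NVR. Capitals mark the E2F element TTTNNCGC in the first pair and the CHR element TTTGAA in the second, in either orientation.
UHRF1: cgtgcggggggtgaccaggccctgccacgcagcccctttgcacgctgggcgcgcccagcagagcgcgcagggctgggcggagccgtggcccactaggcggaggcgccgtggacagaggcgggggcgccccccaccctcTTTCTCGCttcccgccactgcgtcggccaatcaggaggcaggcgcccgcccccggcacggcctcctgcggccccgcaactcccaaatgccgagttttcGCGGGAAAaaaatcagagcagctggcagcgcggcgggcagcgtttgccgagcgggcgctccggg
EXO1: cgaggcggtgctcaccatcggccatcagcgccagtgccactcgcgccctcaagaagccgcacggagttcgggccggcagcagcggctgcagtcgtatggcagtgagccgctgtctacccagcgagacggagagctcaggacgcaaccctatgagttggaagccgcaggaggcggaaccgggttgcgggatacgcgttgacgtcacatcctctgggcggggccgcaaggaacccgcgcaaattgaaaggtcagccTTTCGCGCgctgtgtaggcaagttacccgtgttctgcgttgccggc
HJURP: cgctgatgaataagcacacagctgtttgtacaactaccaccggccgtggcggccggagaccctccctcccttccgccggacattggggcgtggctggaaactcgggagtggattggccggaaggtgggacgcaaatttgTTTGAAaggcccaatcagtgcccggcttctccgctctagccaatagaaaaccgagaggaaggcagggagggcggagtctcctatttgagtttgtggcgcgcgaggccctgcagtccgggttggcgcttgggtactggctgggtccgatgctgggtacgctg
CDCA8: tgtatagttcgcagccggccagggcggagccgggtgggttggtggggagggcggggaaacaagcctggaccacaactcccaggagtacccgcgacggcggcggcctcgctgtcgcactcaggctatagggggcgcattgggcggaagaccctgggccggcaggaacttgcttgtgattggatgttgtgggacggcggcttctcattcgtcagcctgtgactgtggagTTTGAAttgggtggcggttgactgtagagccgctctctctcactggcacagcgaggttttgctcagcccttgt

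Among the 12175 tested genes with a promoter in the RefSeq table, 9.94% held TTTNNCGC and 9.81% held TTTGAA, searched on both strands and counted separately. Over all 27305 promoters of the table the shares were 6.90% and 15.4%. TTTNNCGC was found in 16 of the 32 S phase promoters matched (50.0%) and in 5 of the 45 G2/M promoters (11.1%). TTTGAA was found in 31 of the 45 G2/M promoters (68.9%) and in 2 of the 32 S phase promoters (6.25%). Within the G2/M list the element did not set the opposite genes apart, with TTTGAA in 14 of 19 opposite genes and in 15 of 23 members called in 1 effect or in neither. Within the S phase list, TTTNNCGC was in 9 of 16 genes lower with both, in 2 of 3 opposite genes and in 5 of 13 members called in 1 effect or in neither. Over the classes as a whole, TTTNNCGC was in 14% of genes lower with both (96 of 684) and 7.28% of genes higher with both (47 of 646). In the opposite classes it was in 13.8% of genes lower in NVR and higher with ML355 and in 7.36% of the reverse class, so that it did not follow agreement. TTTGAA was in 10.8% of genes lower with both, 5.11% of genes higher with both, 15.6% of genes lower in NVR and higher with ML355 and 7.36% of the reverse class. A match is a run of letters in this window and not a bound site.

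*UHRF1*, which helps copy DNA methylation onto the new strand, was at 103, 95.4 and 99.97 CPM in OV-L1-FGGY with DMSO and at 23.7, 23.0 and 27.2 CPM with ML355. It was at 104, 127 and 132 CPM in OV-CTRL with DMSO and at 9.71, 11.3 and 5.596 CPM in the libraries labelled NVR. All 6 inhibitor libraries lay below all 6 DMSO libraries. Its level fell by 2.01 on the log2 scale with ML355 (standard error 0.178, edgeR adjusted p = 1.26e-07) and by 3.76 in NVR (standard error 0.194, edgeR adjusted p = 2.49e-09). The effects differed by -1.74 (standard error 0.250, edgeR adjusted p = 3.54e-05). *RRM2*, the regulated subunit of ribonucleotide reductase, fell by 1.56 with ML355 and dropped by 2.003 in NVR, and the difference of -0.44 (standard error 0.169) did not pass the threshold (edgeR adjusted p = 0.0409).

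*HJURP*, the chaperone that places the centromeric histone, was at 15.95, 17.4 and 18.2 CPM in OV-L1-FGGY with DMSO and at 47.7, 52.2 and 50.4 CPM with ML355. It was at 129, 137 and 144 CPM in OV-CTRL with DMSO and at 34.8, 37.9 and 30.7 CPM in the libraries labelled NVR. The groups of each pair did not overlap, as the rule for naming it in its class required. The starting level was higher in the control DMSO group. The log2 fold change was 1.54 with ML355 (standard error 0.112, edgeR adjusted p = 1.53e-08) and -1.98 in NVR (edgeR adjusted p = 5.55e-09). *CDCA8*, a subunit of the chromosomal passenger complex, started from almost the same level in both DMSO groups, at 43.7 CPM and 45.9 CPM. It rose to 97.3 ± 1.79 CPM with ML355 (SD, n = 3) and was at 20.2 ± 1.19 CPM in NVR (SD, n = 3), with a difference between the effects of -2.34 (standard error 0.139, edgeR adjusted p = 6.67e-09).

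Not every S phase gene followed the list. *POLD3*, a subunit of DNA polymerase delta, was at 66.1, 62.4 and 68.6 CPM in OV-L1-FGGY with DMSO and at 110, 104 and 95.9 CPM with ML355. It was at 37.4, 43.0 and 41.4 CPM in OV-CTRL with DMSO and at 12.66, 12.96 and 12.02 CPM in NVR. Its log2 fold changes were 0.65 and -1.69, and their difference was -2.35 (standard error 0.147, edgeR adjusted p = 1.06e-08). The exonuclease *EXO1* had a difference of -2.85 (standard error 0.139, edgeR adjusted p = 9.99e-10), but its rise of 0.36 with ML355 (edgeR adjusted p = 0.00349) was lost without OV-L1-FGGY DMSO replicate 1, 2 or 3 or ML355 replicate 2, where the adjusted p ran from 0.0107 to 0.0157, and with library size alone (adjusted p = 0.112). *RAD51AP1* and *CDCA7* were the other two S phase genes called in opposite directions.

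Among 36 regulators of the G1 to S transition, ML355 lowered 15 and raised 7, and 21 were lower and 3 higher in NVR. Lower with both were 10, against 4.95% of all genes tested, among them *E2F1*, *E2F2*, *E2F3* and *E2F8* of the E2F family, their partner *TFDP1*, *CDK6* and *MYC*. The medians were -0.30 with ML355 and -0.82 in NVR. *CCND2*, *CDKN1A* and *CDKN2D* were higher with both (4.71% of all genes tested). Called in opposite directions were 2 members, higher with ML355 and lower in NVR (2.86%), a count from 1 to 3 with 1 library left out. *E2F7* rose with ML355, unlike the E2F members above. That call was lost with library size alone (adjusted p = 0.0815) and, among other runs, without OV-L1-FGGY DMSO replicate 1 (adjusted p = 0.0321). *CCNA2*, the cyclin of S phase and early mitosis, rose with ML355 and was lower in NVR, by 1.29 and -1.56 on the log2 scale, a difference of -2.86 (standard error 0.196, edgeR adjusted p = 1.93e-08).

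*CDKN1A*, the p21 inhibitor of cyclin-dependent kinases and a p53 target, changed by nearly the same amount on both sides. It was at 166, 154 and 165 CPM in OV-L1-FGGY with DMSO and at 467, 522 and 523 CPM with ML355. It was at 201, 179 and 174 CPM in OV-CTRL with DMSO and at 516, 484 and 542 CPM in the libraries labelled NVR. The log2 fold changes were 1.64 (standard error 0.107, edgeR adjusted p = 5.25e-09) and 1.48 (standard error 0.107, edgeR adjusted p = 5.30e-08). Their difference of -0.16 (standard error 0.148) did not pass the threshold (edgeR adjusted p = 0.391).

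Where both effects were called, p53 targets mostly agreed. Of 30 tested, ML355 raised 23 and lowered 1, 18 were higher in NVR and 1 was lower, and 15 were higher with both, against 4.71% of all genes. Beside *CDKN1A* these include *MDM2*, which destroys p53, *BAX* and *BBC3*, which promote apoptosis, *SESN1*, *ZMAT3*, *FDXR* and *BTG2*. The medians were 1.21 with ML355 and 0.66 in NVR. The difference was called for 15 members, 13 of them with the NVR effect below the ML355 effect. With each library left out in turn, between 13 and 15 members were higher with both.

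*BBC3* (PUMA) was at 8.49, 8.63 and 9.83 CPM in OV-L1-FGGY with DMSO and at 113, 99.4 and 210 CPM with ML355. It was at 99.4, 89.1 and 74.5 CPM in OV-CTRL with DMSO and at 353, 286 and 463 CPM in NVR. Neither pair overlapped, as the rule for naming it in its class required, although the DMSO groups stood far apart. *BBC3* rose 15.7-fold with ML355 and was 4.19-fold higher in NVR, a difference of -1.90 on the log2 scale (standard error 0.338, edgeR adjusted p = 2.55e-04). *GDF15*, a secreted stress hormone, rose 12.4-fold and 2.93-fold. *PLK2*, a polo-like kinase, was the 1 p53 target called in opposite directions, at 0.86 with ML355 and -1.44 in NVR on the log2 scale.

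Where both effects were called, the integrated stress response split, with 8 members opposite, 4 higher with both and 2 lower with both. This is the programme by which cells that sense misfolded protein, lack of amino acids or failing mitochondria make the factor ATF4 and, through it, genes of amino acid synthesis and transport. Of 30 members ML355 raised 24 and lowered 2, whereas 5 were higher in NVR and 11 lower. Among the 24 raised, 12 were not called in NVR. Called in opposite directions were 8 members, all higher with ML355 and lower in NVR (2.86% of all genes tested), namely *ASNS*, *TRIB3*, *SESN2*, *MTHFD2*, *CEBPG*, *XPOT*, *VEGFA* and *STC2*. Higher with both were *PHGDH*, *PCK2*, *CTH* and *CEBPB*, a count of 2 with library size alone, and lower with both were *PSPH* and the cystine transporter *SLC7A11*. The medians were 1.29 and -0.30, and the difference was called for 20 members with the NVR effect below and for 1 with it above. The rise of *STC2* with ML355 was lost with library size alone (adjusted p = 0.0291), and without OV-L1-FGGY DMSO replicate 2 or ML355 replicate 1 or 3.

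The 2 members with the smallest adjusted p of the difference, *ATF3* and *DDIT3*, were called with ML355 and not in NVR. *DDIT3* (CHOP), a factor that promotes death under lasting stress, was at 6.02, 7.42 and 8.26 CPM in OV-L1-FGGY with DMSO and at 433, 311 and 308 CPM with ML355. In OV-CTRL with DMSO it was at 22.2, 18.1 and 15.2 CPM and in the libraries labelled NVR at 14.1, 12.9 and 17.6 CPM, so that the second pair overlapped. The effects differed by -5.92 (standard error 0.262, edgeR adjusted p = 4.31e-10). *ATF3* differed by -3.70 (standard error 0.151, edgeR adjusted p = 3.33e-10), with a log2 fold change of 3.56 with ML355 and of -0.14 in NVR (edgeR adjusted p = 0.294). *PHGDH*, the first enzyme of serine synthesis, agreed in direction at 1.27 and 0.92, and *CTH*, which makes cysteine, at 0.71 and 1.06, although *CTH* started from 58.4 CPM in one DMSO group and 2.25 CPM in the other.

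**Figure D3:**
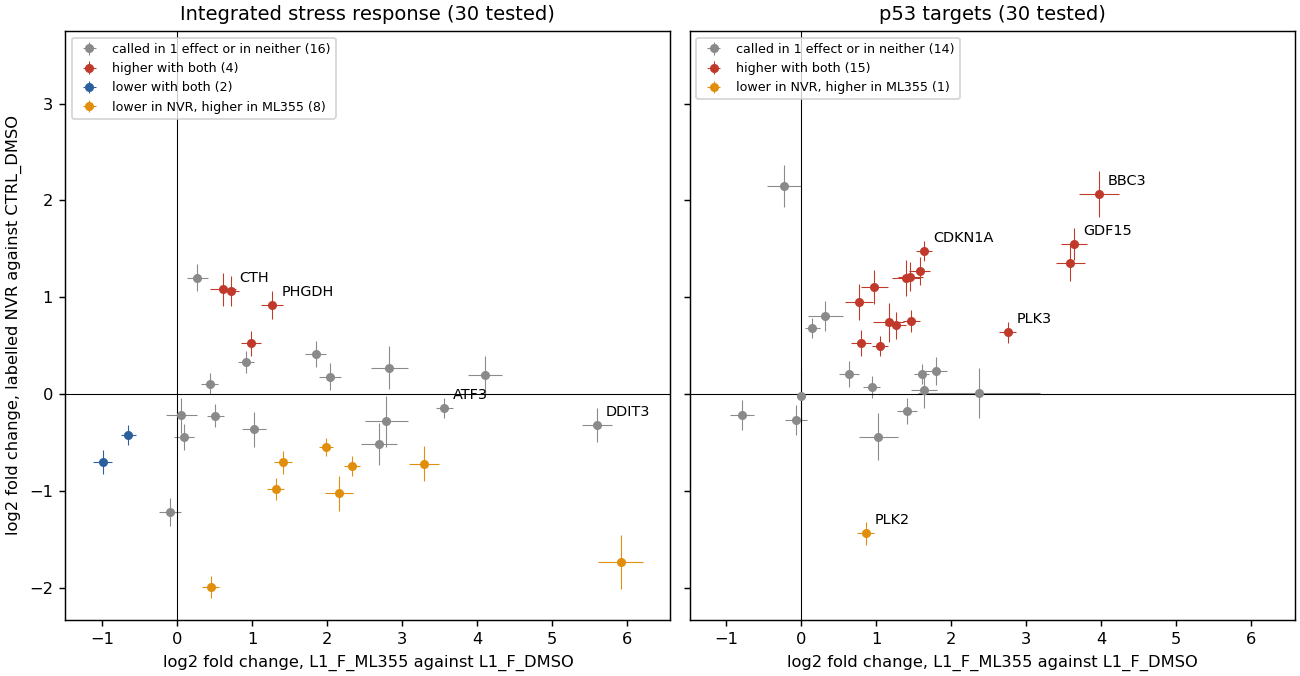
Log2 fold change with ML355 (horizontal) and in the libraries labelled NVR (vertical) of the 30 integrated stress response genes and the 30 p53 targets tested, with bars of 1 standard error from the edgeR fit. The 15 p53 targets higher with both lie in the upper right, whereas 8 integrated stress response genes lie in the lower right and *DDIT3* and *ATF3* lie far right near 0 on the vertical axis.

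Other stress lists held more genes raised by ML355 than genes higher in NVR, as did all genes tested (21.3% and 14.5%). In the unfolded protein response of the endoplasmic reticulum, 11 of 26 members rose with ML355 and 5 were higher in NVR. The difference was called for 11 with the NVR effect below (17.3% of all genes tested) and 4 with it above (16.8%). *HSPA5* (BiP), the main chaperone of that compartment, rose 6.65-fold with ML355 and was at 568 ± 46.4 CPM in NVR against 557 ± 12.9 CPM in OV-CTRL with DMSO (SD, n = 3 each). Of 26 heat shock genes, 15 rose with ML355 and 3 were higher in NVR, with medians of 0.52 and 0.01. *HSPA1B*, an inducible HSP70 gene, was higher with both, by 3.35 and 1.98 on the log2 scale, but its near-identical copy *HSPA1A* shares reads with it, its level with ML355 was 615, 138 and 623 CPM, and the NVR call was lost without NVR replicate 2 or 3 or OV-CTRL DMSO replicate 3, where the adjusted p ran from 0.0119 to 0.0241. Of 37 immediate early genes, which answer growth and stress signals within minutes, 8 were higher with both (4.71% of all genes tested). A further 3 were lower with both (4.95%) and 4 were higher with ML355 and lower in NVR (2.86%). The 4 opposite members were 2 without NVR replicate 1, NVR replicate 3, OV-CTRL DMSO replicate 2 or OV-CTRL DMSO replicate 3.

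Mitochondrially encoded mRNAs also parted. Mitochondrial DNA encodes 13 proteins, all subunits of the respiratory chain and ATP synthase. All 13 mRNAs fell with ML355, 5 were higher in NVR and none was lower, and the difference was called for all 13. The medians were -3.23 and 0.33. *MT-ATP6*, a subunit of ATP synthase, was at 3732, 3180 and 3500 CPM in OV-L1-FGGY with DMSO and at 271, 298 and 232 CPM with ML355. It was at 3227, 2522 and 2410 CPM in OV-CTRL with DMSO and at 4947, 4152 and 5467 CPM in NVR, and neither pair overlapped. The effects differed by 4.54 (standard error 0.227, edgeR adjusted p = 1.23e-09). *MT-CYB* of complex III differed by 5.14 (standard error 0.236, edgeR adjusted p = 5.74e-10), at -4.89 with ML355 and 0.25 in NVR (edgeR adjusted p = 0.212).

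Among the nuclear genes of the same chain fewer were called. Of 77 tested, 16 rose and 5 fell with ML355, 19 were higher in NVR and 1 was lower, and 5 were higher with both (4.71% of all genes tested) with none in opposite directions. The difference was called for 12, 8 with the NVR effect above and 4 with it below, among the latter *NDUFV2* and *UQCRC2*. The 8 ran from 3 without OV-L1-FGGY DMSO replicate 1 or OV-CTRL DMSO replicate 2 to 21 without NVR replicate 2, and were 4 or 5 without OV-L1-FGGY DMSO replicate 2 or 3, ML355 replicate 2 or 3, NVR replicate 1 or OV-CTRL DMSO replicate 3. The medians were 0.24 and 0.50. Cytosolic ribosomal proteins agreed more clearly, with 38 of 76 higher with ML355, 62 higher in NVR, none lower in either, and 27 higher with both. Their medians were 0.64 and 0.85, and the difference was called for 3 members. Both lists varied between libraries of 1 group. The mean log2 CPM of the ribosomal proteins, less that of the DMSO group, was 0.90, 0.49 and 0.85 in ML355 replicates 1 to 3 and 0.82, 0.40 and 1.18 in NVR replicates 1 to 3. Without 1 library the 27 became 14, 17 and 16 (OV-L1-FGGY DMSO replicates 1, 2 and 3), 13 and 17 (ML355 replicates 1 and 3), 12 and 41 (NVR replicates 1 and 2) or 8 and 7 (OV-CTRL DMSO replicates 2 and 3). The 5 nuclear respiratory genes ran from 1 without OV-CTRL DMSO replicate 2 or 3 to 14 without NVR replicate 2.

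The strongest genes of each class were taken by the size of the smaller effect. Only genes whose inhibitor and DMSO libraries did not overlap in either effect could be chosen. Higher with both, in this order, were *DUSP15*, *DHRS2*, *IRF7*, *BBC3* and *G0S2*. *DHRS2* (ENSG00000100867, chromosome 14 from 23630115 to 23645639), a short-chain dehydrogenase, was at 1.66, 2.58 and 2.17 CPM in OV-L1-FGGY with DMSO and at 127, 132 and 150 CPM with ML355. It was at 8.88, 8.21 and 6.45 CPM in OV-CTRL with DMSO and at 35.7, 30.9 and 42.6 CPM in the libraries labelled NVR. It rose 63.5-fold on one side and was 4.64-fold higher on the other, a difference of -3.77 on the log2 scale (standard error 0.242, edgeR adjusted p = 1.14e-08). *IRF7*, a transcription factor of the interferon response, rose 5.602-fold and 4.41-fold, with a difference of -0.35 (standard error 0.252) that did not pass (edgeR adjusted p = 0.279). The smaller effect of *DUSP15*, a phosphatase, was 2.33 on the log2 scale and that of *G0S2*, an inhibitor of fat breakdown, 2.02.

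Lower with both were *CPA4*, *AOX1*, *ZNF469*, *NES* and *RIBC2*. *ZNF469* (ENSG00000225614), a zinc finger gene, was at 33.1, 27.98 and 41.8 CPM in OV-L1-FGGY with DMSO and at 3.40, 4.74 and 3.94 CPM with ML355. It was at 24.5, 35.4 and 37.3 CPM in OV-CTRL with DMSO and at 4.003, 6.81 and 3.24 CPM in NVR. Both falls were of similar size, at -3.09 (standard error 0.255, edgeR adjusted p = 5.86e-08) and -2.76 (standard error 0.247, edgeR adjusted p = 4.39e-07). None of these 5 genes had a called difference between the effects, the lowest edgeR adjusted p being 0.0983 for *RIBC2*. *NES*, the intermediate filament nestin, fell from 22.7 to 3.38 CPM with ML355 and from 3.10 to 0.367 CPM in NVR. *CPA4*, a secreted carboxypeptidase, fell by 3.82 and 3.09 on the log2 scale.

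**Figure D4:**
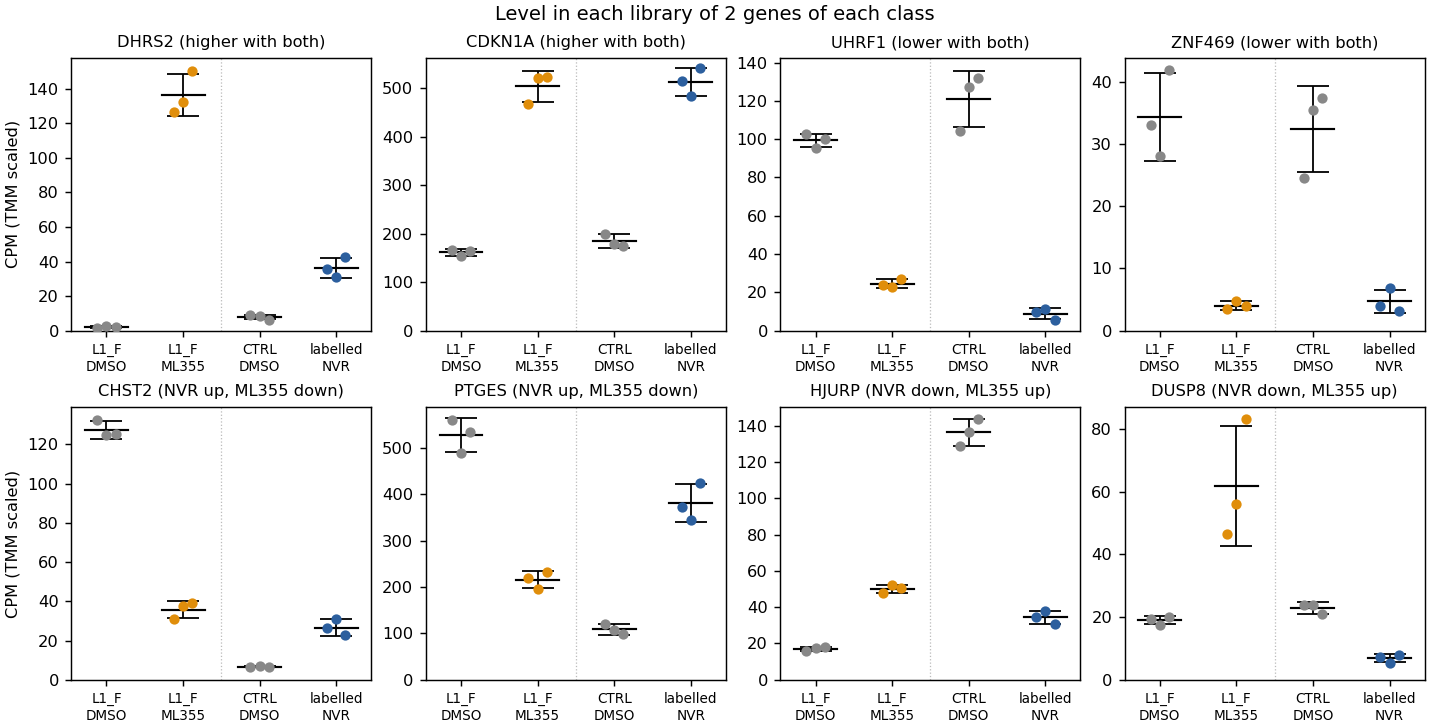
CPM with TMM scaling of 8 genes in each of the 12 libraries (points), with the mean and SD of each group of 3 (lines and bars), for 2 genes of each class. The ML355 pair is on the left of the dotted line and the NVR pair on the right. *CDKN1A* moves alike on both sides, and *CHST2*, *PTGES*, *HJURP* and *DUSP8* cross over.

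Higher in NVR and lower in ML355 were *LINC02593*, *ATOH8*, *PI3*, *CHST2* and *ALPK3*. *CHST2* (ENSG00000175040, chromosome 3 from 143119771 to 143124014), a carbohydrate sulfotransferase, was at 133, 125 and 125 CPM in OV-L1-FGGY with DMSO and at 30.8, 37.5 and 39.1 CPM with ML355. It was at 6.35, 6.999 and 6.48 CPM in OV-CTRL with DMSO and at 26.2, 31.0 and 22.6 CPM in the libraries labelled NVR. Neither pair overlapped, as the rule for naming it required, and the inhibitor libraries of both sides lay closer to each other than the DMSO groups did. *PI3*, the elastase inhibitor elafin, started alike at 18.9 and 16.9 CPM and went to 5.24 ± 1.71 CPM with ML355 (SD, n = 3) and to 90.65 ± 20.96 CPM in NVR (SD, n = 3). The transcription factor *ATOH8* had 0, 2 and 5 counts in the ML355 libraries, so that its log2 fold change of -4.31 depends on the prior count.

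*ALPK3*, a muscle kinase gene, was at most 2.07 CPM in every library but those labelled NVR. Its fall with ML355 of 1.78 on the log2 scale (edgeR adjusted p = 0.00249) was lost without OV-L1-FGGY DMSO replicate 3 (adjusted p = 0.0211) or ML355 replicate 1 (adjusted p = 0.0157), and with limma voom (adjusted p = 0.0108).

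Lower in NVR and higher in ML355 were *RNF223*, *CD37*, *DUSP8*, *SPDEF* and *HJURP*. *RNF223* (ENSG00000237330, chromosome 1 from 1070967 to 1074306), a ring finger gene, was at 3.38, 2.998 and 3.43 CPM in OV-L1-FGGY with DMSO and at 28.1, 24.2 and 50.8 CPM with ML355. It was at 3.20, 3.91 and 3.15 CPM in OV-CTRL with DMSO and at 0.400, 0.296 and 0.274 CPM in NVR. From a like start it went 10.5-fold up on one side and 10.4-fold down on the other. *DUSP8*, a phosphatase that switches off stress-activated MAP kinases, started at 19.0 and 22.9 CPM and reached 61.9 ± 19.1 CPM with ML355 and 6.93 ± 1.31 CPM in NVR (SD, n = 3 each).

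Genes of arachidonic acid metabolism bear on the pathway that ML355 targets. Of 33 tested, ML355 raised 7 (21.3% of all genes tested) and lowered 11 (23.5%). In NVR 14 were higher (14.5%) and 1 was lower (15.3%). Only 18 of the 33 averaged 1 CPM or more in both DMSO groups. Called in both effects were 9 members, 3 higher with both (4.71%), 1 lower with both (4.95%) and 5 higher in NVR and lower in ML355 (2.44%). These 5 were 3 without ML355 replicate 2, ML355 replicate 3, NVR replicate 1, OV-CTRL DMSO replicate 2 or OV-CTRL DMSO replicate 3, and also with library size alone. *PTGES*, the enzyme that completes prostaglandin E2, was at 561, 489 and 536 CPM in OV-L1-FGGY with DMSO and at 220, 197 and 232 CPM with ML355. It was at 121, 107 and 97.9 CPM in OV-CTRL with DMSO and at 374, 345 and 425 CPM in the libraries labelled NVR, a difference between the effects of 3.10 (standard error 0.173, edgeR adjusted p = 3.50e-09). *PLA2G4A*, the phospholipase that frees arachidonic acid, fell by 1.81 with ML355 and had a log2 fold change of 0.34 in NVR (edgeR adjusted p = 0.0648), with a called difference of 2.16.

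*ALOX12*, which encodes 12-LOX itself, was at 0.975, 0.578 and 0.706 CPM in OV-L1-FGGY with DMSO and at 3.60, 2.58 and 2.63 CPM with ML355. It was at 5.85, 6.45 and 5.95 CPM in OV-CTRL with DMSO and at 4.95, 6.44 and 4.44 CPM in NVR. It rose with ML355 and overlapped in the second pair, a difference of -2.16 (standard error 0.349, edgeR adjusted p = 1.08e-04). The genes listed because the study follows them were 10, and only 7 passed the filter on low counts and were tested. Of the other genes the study follows, *WNT5A* fell by 1.54 with ML355 and was at 3.26 and 3.19 CPM in the second pair, *TCF4* fell by 2.11 with ML355 and had a log2 fold change of -0.64 in NVR (edgeR adjusted p = 0.0154, but 0.00969 with limma voom, 0.00848 with DESeq2, 0.00524 with library size alone and 0.00925 without ML355 replicate 2, which would make it lower with both), and *CTNNB1* was called in neither effect nor in the difference. *ALOX5*, which encodes 5-lipoxygenase, was at 1.61, 1.47 and 2.27 CPM in OV-L1-FGGY with DMSO and at 1.08, 0.772 and 0.473 CPM with ML355. It was at 2.103, 1.88 and 1.65 CPM in OV-CTRL with DMSO and at 4.75, 4.11 and 4.005 CPM in NVR, so that *ALOX5* was called in opposite directions, at -1.19 and 1.19 on the log2 scale. The ML355 call of *ALOX5* was lost without OV-L1-FGGY DMSO replicate 3 or ML355 replicate 2 or 3 (adjusted p from 0.0129 to 0.0293), and the NVR call without NVR replicate 1 or OV-CTRL DMSO replicate 2 or 3 (adjusted p from 0.0111 to 0.0134). *USP24* was lower with both, at -0.55 and -0.56, but the ML355 call was lost without OV-L1-FGGY DMSO replicate 1 (adjusted p = 0.0110), and the NVR call without NVR replicate 1 or 3 or OV-CTRL DMSO replicate 2 or 3 (adjusted p from 0.0119 to 0.0214).

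Few Wnt pathway genes were called in both effects, with 1 higher with both (4.71% of all genes tested) and 3 lower with both (4.95%). In opposite directions were 3 higher in NVR and lower in ML355 (2.44%) and 1 the reverse (2.86%). Counts this small do not set the list apart from all genes. Of 46 tested, ML355 lowered 16 (23.5% of all genes tested) and raised 10 (21.3%). NVR had 5 higher (14.5%) and 5 lower (15.3%). The difference was called for 20 and not for 26. *DKK1*, a secreted Wnt inhibitor, fell with both, 17.1-fold and 2.76-fold, and *WNT3* fell by 1.52 and 1.04 on the log2 scale. *WNT6* fell by 3.74 with ML355 and was higher in NVR by 1.53.

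YAP and TEAD targets agreed more often than they disagreed. Of 24 tested, 14 fell with ML355 (23.5% of all genes) and 18 were lower in NVR (15.3%), and 10 were lower with both (4.95%), among them *CCN2* and *AMOTL2*, classical targets of the pair. The medians were -0.51 and -1.27, and the count lower with both ran from 7 to 10 with each library left out. The difference was called with the NVR effect below for 10 members, a count of 6 without OV-L1-FGGY DMSO replicate 2 or NVR replicate 1. *TGFB2*, a growth factor, fell by 2.53 and 2.11 (edgeR adjusted p of the difference 0.392). *AXL*, a receptor kinase, and *NUAK2* were higher with ML355 and lower in NVR. *GADD45A*, a growth arrest gene on this list, rose 22.2-fold with ML355 and was at 91.8 CPM in NVR against 95.3 CPM in OV-CTRL with DMSO.

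Cytokine and interferon genes were called both ways. Of 34 NF-kB targets and chemokines, 5 were higher with both (4.71% of all genes tested) and none was lower with both (4.95%). In opposite directions were 6, with 3 higher in NVR and lower in ML355 (2.44%) and 3 the reverse (2.86%). The cytokine *IL1B* rose with both, from 3.36 to 21 CPM and from 3.80 to 10.5 CPM, whereas *IL6* fell 3.89-fold with ML355 and was 2.34-fold higher in NVR. Of 37 interferon-stimulated genes, 11 rose (21.3% of all genes tested) and 9 fell (23.5%) with ML355. In NVR 15 were higher (14.5%) and 1 was lower (15.3%). Called in both effects were 4 higher with both (4.71%) and 3 higher in NVR and lower in ML355 (2.44%). The 3 fell to 1 without OV-L1-FGGY DMSO replicate 1 or 3 or ML355 replicate 3. *IFI44* stood at 120 CPM in OV-L1-FGGY with DMSO and at 1.504 CPM in OV-CTRL with DMSO, and was 4.82-fold higher in NVR, while its ML355 fall of 0.45 on the log2 scale was lost without OV-L1-FGGY DMSO replicate 1 or 3 or ML355 replicate 3 (adjusted p from 0.0116 to 0.0138). *IRF1* rose 6.48-fold with ML355 and had a log2 fold change of 0.06 in NVR (edgeR adjusted p = 0.750).

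Metabolic lists were mixed. Over all genes tested, 4.71% were higher with both, 4.95% lower with both, 2.44% higher in NVR and lower in ML355 and 2.86% the reverse. Counts of 1 or 2 in lists of this size lie near these shares. Of 25 cholesterol synthesis genes, 4 were higher with both, 2 lower with both and 3 opposite. The first count fell to 1 without NVR replicate 1, OV-CTRL DMSO replicate 2 or OV-CTRL DMSO replicate 3, and with library size alone. The 2 lower with both became 1 when any of 6 libraries was left out. *MSMO1*, a sterol demethylase, rose by 1.76 and 0.86, whereas *TM7SF2*, a sterol reductase, was at 159 ± 39.9 CPM in NVR against 30.2 ± 5.11 CPM in OV-CTRL with DMSO and fell with ML355, a call lost without ML355 replicate 1 (adjusted p = 0.0131). In the hypoxia list of 40, medians were 0.32 with ML355 and -0.28 in NVR, with 3 higher with both, 4 lower with both, 4 higher with ML355 and lower in NVR and 1 the reverse. Without OV-CTRL DMSO replicate 2, only 2 of this list were lower with both. *SLC2A3*, a glucose transporter, rose 3.38-fold with ML355 and was 1.69-fold lower in NVR, and *PGK1* of glycolysis fell by 1.06 and 0.61. Of 21 glycolysis genes 2 were higher with both, a count of 1 when any of 11 of the 12 libraries was left out. Another 2 were higher with ML355 and lower in NVR. The 4 lower with both became 2 without NVR replicate 1, OV-CTRL DMSO replicate 1 or OV-CTRL DMSO replicate 2. Of 35 lysosome and autophagy genes, 7 were higher with both and 3 were opposite. The 7 became 4 without OV-L1-FGGY DMSO replicate 1 or 2, ML355 replicate 1, NVR replicate 1 or OV-CTRL DMSO replicate 2. The 2 opposite genes higher in NVR ran from 0 to 3 with 1 library left out. Of 29 NRF2 targets, 2 were higher with both, 2 lower with both and 2 opposite. With 1 library left out, the count higher with both ran from 0 to 3 and the opposite count, higher in NVR, from 1 to 3. Among the opposite genes *AKR1C1* fell 3.80-fold with ML355 and was 2.25-fold higher in NVR.

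Of 27 replication-dependent histone genes tested out of 52 listed, 14 rose (21.3% of all genes tested) and 3 fell (23.5%) with ML355. In NVR 5 were higher (14.5%), and 4 were higher with both (4.71%). The difference was called with the NVR effect above for 4 (16.8%) and below for 6 (17.3%). The 6 were 3 among genes with at least 1 CPM in both DMSO groups. *H2BC21* rose 22.5-fold and was 2.06-fold higher, and *H2BC5* was at 75.4, 38.0 and 75.0 CPM with ML355 against 14.4 CPM in its DMSO group. Most histone mRNAs of this kind carry no poly(A) tail, and their near-identical copies can share reads, so that single members are uncertain. The squamous differentiation and xenobiotic lists had few members tested, 14 of 38 and 13 of 24. In the first, *PPL* was lower with ML355 and higher in NVR, *DSC2* and *GRHL3* were lower with both, and *KRT10* was higher with both, the last a call in NVR lost without 8 of the 12 libraries in turn (adjusted p from 0.0102 to 0.0453). In the second, *CYP1B1* was higher with both and *TIPARP* was higher with ML355 and lower in NVR. The ML355 call of *CYP1B1* was lost without OV-L1-FGGY DMSO replicate 2 or 3 or ML355 replicate 1 or 2 (adjusted p from 0.0105 to 0.0166) and its NVR call without OV-CTRL DMSO replicate 1 (adjusted p = 0.0111), and both with library size alone. The NVR call of *TIPARP* was lost without NVR replicate 1 or 3 or OV-CTRL DMSO replicate 2 or 3 (adjusted p from 0.0169 to 0.0255).

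**Figure D5:**
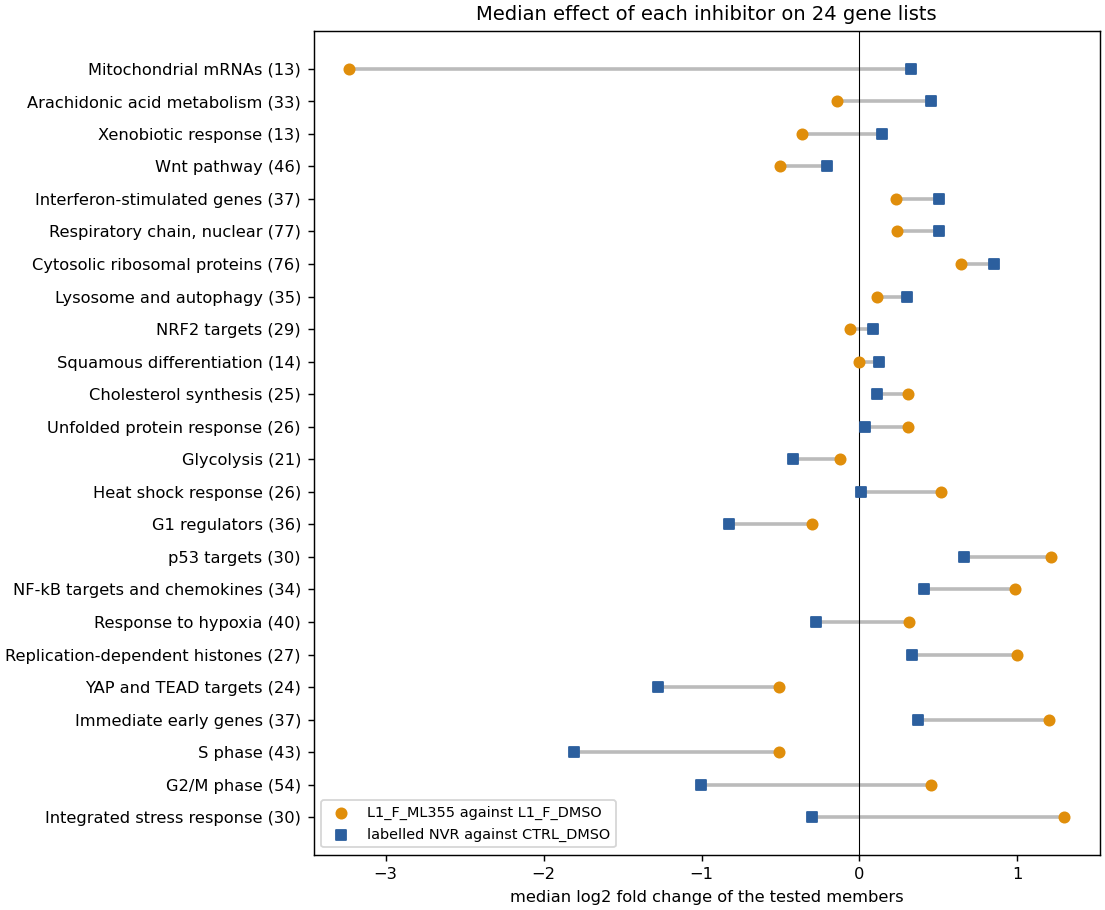
Median log2 fold change of the tested members of 24 gene lists with ML355 (circles) and in the libraries labelled NVR (squares), with the number of members tested in brackets and lists ordered by the difference of the medians. S phase genes, YAP and TEAD targets and p53 targets lie on the same side of 0 for both, whereas mitochondrial mRNAs, G2/M genes and the integrated stress response lie on opposite sides.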

How the data were processed

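RNA-seq libraries of 4 groups of 3 were analysed. The authors deposited raw read counts per gene for the 12 libraries, made with STAR 2.5.3a and HTSeq 0.11.2 on hg38 per the submitters' processing notes. The annotation release and the strand setting are not given in the sources used here. The labels name a TruSeq library kit and the study's methods one from NEB. Symbols matched 57532 of 58302 gene identifiers. Total counts per library were 16242082 to 27004768, and 3 counts were taken as the floor. The control DMSO columns were assigned to OV-CTRL by elimination.

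All 12 libraries were fitted together in edgeR 4.0.16 (R 4.3.3) with 4 group means, TMM scaling, edgeR's filter on low counts and the robust quasi-likelihood test, which left 17849 genes, 17701 of them with a symbol. Contrasts were the ML355 effect, the NVR effect and the NVR minus the ML355 effect, each called at a Benjamini-Hochberg adjusted p under 0.01. CPM values are TMM scaled. The code was tested on simulated data. Alternatives used limma 3.58.1 (voom), DESeq2 1.42.0, other scalings, filters and thresholds, each library left out, and a replicate block. Figures and summaries used Python 3.11.15 with numpy 2.4.6, pandas 2.3.3 and matplotlib 3.10.9.

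Genes were named by rule. For each class they were the 5 with the largest smaller effect, among genes with a symbol, at least 1 CPM in both DMSO groups and no overlap between inhibitor and DMSO libraries. For each list they were up to 2 members with the smallest adjusted p of the difference and up to 2 moving the same way with the largest smaller effect, together with the tested genes that the study follows. Members named without values only show which genes a count holds and were chosen after their values were seen. The comparison and the lists were chosen with earlier results of these data known.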

Additional observations from a re-analysis of the deposited data

Results flagged for a closer look

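The difference between the effects, given here as the NVR effect minus the ML355 effect on the log2 scale and called by edgeR's test of the difference, is listed for the 10 genes named for the opposite classes. They were chosen because both effects were called in opposite directions with a large smaller effect and the difference was called, so that the values describe the choice and support nothing further. The difference was 5.66 for *LINC02593*, 6.26 for *ATOH8*, 4.27 for *PI3*, 3.84 for *CHST2* and 3.94 for *ALPK3*, which were higher in NVR and lower in ML355. It was -6.77 for *RNF223*, -3.85 for *CD37*, -3.44 for *DUSP8*, -3.40 for *SPDEF* and -3.53 for *HJURP*, which were lower in NVR and higher in ML355.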

How the results depend on the processing

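Counts were recomputed under each alternative. With library size alone 557 genes were higher with both. At an adjusted p under 0.05 there were 1424 genes higher with both, 1471 lower with both, 877 higher in NVR and lower in ML355 and 945 the reverse. With a log2 fold change of at least 1 as well, ML355 had 4590 genes and NVR 2344, and the 4 classes held 271, 231, 131 and 81.

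With 1 library left out in turn, the count of differing effects ran from 5086 to 6431, ML355 from 6765 to 8530, NVR from 3510 to 6107, higher with both from 546 to 1026, lower with both from 607 to 1051, higher in NVR and lower in ML355 from 293 to 507, and the reverse from 323 to 646. Leaving out OV-CTRL DMSO replicate 2 gave 3510 for NVR, 546 higher with both and 329 lower in NVR and higher in ML355. Without OV-CTRL DMSO replicate 3 there were 547 higher with both, and without NVR replicate 1 there were 323 lower in NVR and higher in ML355.

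The replicate block gave 5649 differing effects, 735 genes higher with both, 774 lower with both, 375 higher in NVR and lower in ML355 and 446 the reverse. Correlations of same-numbered deviations ran from -0.0521 to -0.0258 on the ML355 side and from -0.354 to 0.17 on the NVR side. With 3 libraries in a group, these values cannot show whether libraries of the same number belong together. Over the named genes, 7087 recomputed calls kept direction and side of the threshold, 178 fell short of it, 38 newly passed it and 0 reversed. No gene of a class was called in the opposite class under an alternative run. Every run reused the same libraries and the classes hold called genes only, so that a reversal was hardly possible from the start. The cause of the calls lost or gained was not tested.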
